A study of Homo sapiens with 6 samples.

Results

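The ADAM and ADAMTS metalloproteases were compared between 231-BR cells, a brain-seeking variant of a triple-negative human breast cancer line, and the parental MDA-MB-231 line. The family was chosen with earlier results of these data known. Its genes were taken by name, as every gene whose whole symbol is ADAM or ADAMTS followed by a number, without the related ADAMTSL genes. This gave 34 of the 17039 genes in the expression table, 16 of them ADAM genes and 18 ADAMTS genes. The study prepared 3 libraries of poly(A) RNA from each line, from untreated cells grown in DMEM with fetal bovine serum, and the 231-BR medium also held G418. The 231-BR cells were a gift from another laboratory, and the MDA-MB-231 cells were bought from ATCC. The parental cells therefore served as the reference without that antibiotic and from another source. The cell line, the G418 and the source of the cells cannot be told apart. The series describes the 3 samples of a line as independent without saying whether they were grown separately, so the p-values measure the spread between these libraries, which may be technical.

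ADAM proteins are membrane-anchored proteases that cut other membrane proteins close to the cell surface, a step called ectodomain shedding. They release growth factors, cytokines and the extracellular parts of receptors and adhesion molecules, and several members lack a working active site and act as adhesion proteins instead. ADAMTS proteins are the secreted relatives, which carry thrombospondin repeats and cut the extracellular matrix, above all the large proteoglycans, procollagens and proteins of the microfibrils. The brain matrix is rich in such proteoglycans.

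Expression was given as FPKM, the number of sequenced fragments of a gene scaled by the length of its transcript and by the size of the library, so levels of different genes can be set side by side. The depth of the libraries is unknown because the table holds no read counts. The summed FPKM was 465020 to 472007 in 231-BR cells and 486937 to 496420 in the parental cells, and across genes, libraries of 1 line correlated at 0.997 or more and libraries of different lines at 0.902 or less. As markers of the labelled cell type, VIM, an intermediate filament of mesenchymal cells, was at 2273 to 2566 FPKM, CDH1, the epithelial cadherin, at 0.03 FPKM or less, the progesterone receptor gene PGR at 0.07 FPKM or less, and the estrogen receptor gene ESR1 at 0.74 to 1.08 FPKM. CD44, AXL and FN1, also listed as mesenchymal markers, were at 177 to 253, 233 to 284 and 7.54 to 20.5 FPKM. The epithelial gene CLDN3 was at 0.61 FPKM or less. Other listed markers went the other way. SPARC, listed as a mesenchymal marker, stayed under 1 FPKM in every library, the epithelial genes KRT8 and KRT18 were at 174 to 244 FPKM and 269 to 365 FPKM, EPCAM at 4.44 to 9.31 FPKM and CLDN4 at 2.56 to 15.45 FPKM, and ERBB2, the HER2 gene, at 4.75 to 10.2 FPKM. Of 13 markers of immune cells, endothelium, nerve tissue and blood, 10 were found, and their summed level was 21.6 to 22.2 FPKM in 231-BR cells and 13.2 to 14.7 FPKM in the parental cells. MBP made up 20.6 to 21.2 FPKM and 12.8 to 14.3 FPKM of these sums, whereas the leukocyte genes PTPRC and CD3E were at 0 in every MDA-MB-231 library and at 0.04 FPKM or less in 231-BR cells, and the monocyte gene CD14 was at 0.05 to 0.27 FPKM in 231-BR cells and 0.03 to 0.05 FPKM in the parental cells. The part of these markers in the results was not tested.

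The summed levels of the families differed in opposite directions, carried by a few abundant genes and not shared by every member. The summed level of the ADAM genes was 179 ± 1.23 FPKM in 231-BR cells and 242 ± 3.76 FPKM in the parental cells (SD, n = 3 each), whereas the summed level of the ADAMTS genes was 53.4 ± 0.584 FPKM against 32.1 ± 0.905 FPKM. The ADAMTS genes thus made up 23% ± 0.143 of the summed level of both families in 231-BR cells and 11.7% ± 0.144 in the parental cells, with no overlap between the lines. Both families together held 0.049% of all summed FPKM in 231-BR cells and 0.056% in the parental cells.

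**Figure D1:**
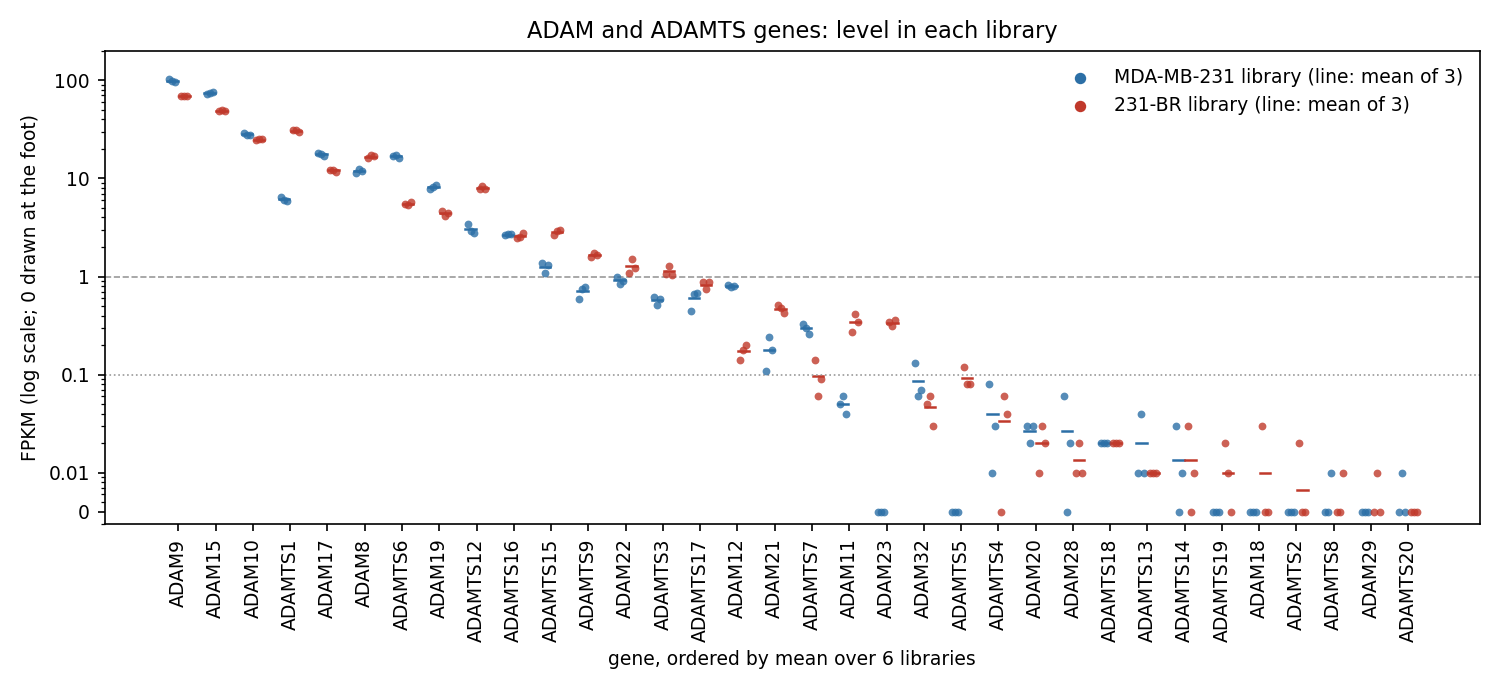
The FPKM of each of the 34 genes in each library, on a log axis, with a short line at the mean of the 3 libraries; the dotted and dashed lines mark 0.1 and 1 FPKM. The 14 genes on the right stay under a mean of 0.1 FPKM, while ADAMTS1, ADAMTS6 and ADAMTS12 show the widest gaps between the lines among the genes over 1 FPKM.

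A gene entered the limma test, run on log2(FPKM + 0.1), when its FPKM averaged 0.1 or more across the 6 libraries. A positive fold change means a higher level in 231-BR cells, and the scale understates the changes of genes with a low FPKM. A gene was called when the p-value adjusted over all 13465 genes tested was under 0.05. The 3 libraries of one line all lay above the 3 of the other for 11 tested genes in one direction and 8 in the opposite direction, where 78.4% of all genes tested did so, 44.9% higher in 231-BR cells and 33.5% lower. Of the 34 genes, 11 were called higher and 8 lower in 231-BR cells, ADAMTS16 was tested and not called, and 14 were too low to be tested. The lines differ in most genes, and 77.3% of all genes tested were called, 44.4% higher and 32.9% lower. By family, 5 of the 11 tested ADAM genes were called higher and 6 lower, and 6 of the 9 tested ADAMTS genes were called higher and 2 lower. ADAM11, ADAM23 and ADAMTS7 are in these counts, with a mean of at least 0.1 FPKM in 1 line only. Of the 17 genes with such a mean in both lines, 9 were called higher and 7 lower, or 94.1%. Over all 12711 tested genes with such a mean in both lines, 76.9% were called, 5541 higher and 4230 lower. After quantile normalization, which shifted the median change over all genes by -0.14 on the log2 scale, 4825 genes were called higher and 5749 lower in place of 5973 and 4433, and 9 of the 34 genes were called higher and 9 lower.

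A log2 fold change over 1 in either direction was reached by 10 of the called genes, 7 higher and 3 lower, where 15.2% of all genes tested did so, 10.9% higher and 4.34% lower. ADAM11, ADAM23 and ADAMTS7 passed the filter through 1 line only, so the means of the lines had to differ, which makes a call more likely. Among genes with a mean of at least 1 FPKM in both lines, 4 of 11 ADAM and ADAMTS genes were past this fold (ADAMTS1, ADAMTS6, ADAMTS12 and ADAMTS15), and 8.23% of all 10548 such genes were. Within this set 10 of the 11 were called, where the background was 79.8%.

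**Figure D2:**
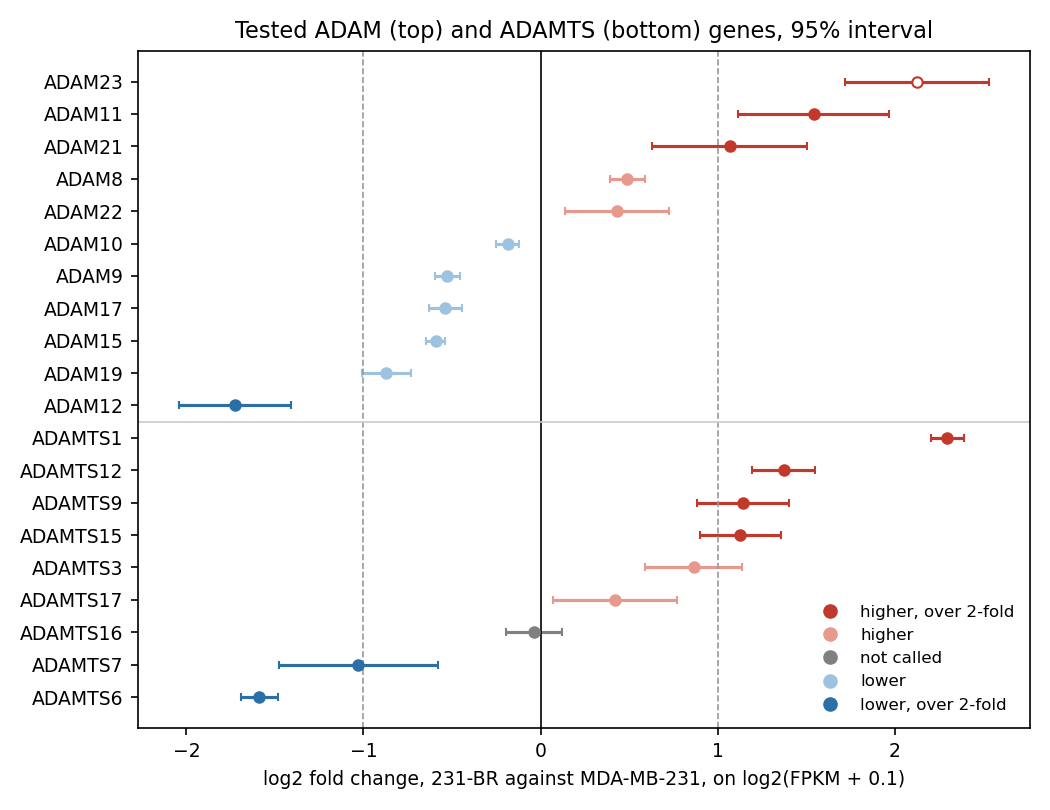
Log2 fold changes of the 20 tested genes with their 95% intervals from limma, ADAM genes above and ADAMTS genes below; dashed lines mark a change of 1 in either direction. The open point is ADAM23, which is at 0 in the parental libraries, so that its place depends on the pseudocount; ADAM9, ADAM10, ADAM15, ADAM17 and ADAM19 lie between -0.19 and -0.87, and ADAMTS1 lies at 2.30.

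Of the 8 ADAM genes with an active site that could be tested, 6 were called lower in 231-BR cells and 2 higher, where 32.9% of all genes tested were called lower and 44.4% higher. ADAM17 is the main sheddase of tumor necrosis factor and of most ligands of the EGF receptor. It had 12.2, 12.3 and 11.7 FPKM in the 231-BR libraries and 18.2, 17.8 and 16.7 FPKM in the parental libraries. Every 231-BR library was below every MDA-MB-231 library, and the log2 fold change was -0.54 (standard error, SE, 0.041, and adjusted p = 9.2e-07 from limma). Exons of ADAM17 share 1323 bases with IAH1 on the opposite strand in GENCODE release 29, and the sources do not say that strand was used in counting, so reads of the 2 genes may be mixed.

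ADAM10, which sheds Notch receptors and cadherins, had 24.6, 25.1 and 25.0 FPKM in 231-BR cells and 29.1, 27.9 and 28.0 FPKM in the parental cells. The groups did not overlap, but the difference was the smallest among the called ADAM and ADAMTS genes, with a log2 fold change of -0.19 (SE 0.030, adjusted p = 0.00022). An antisense gene shares 136 exonic bases with it. The ratio of ADAM10 to ADAM17 was accordingly 2.06 ± 0.059 in 231-BR cells and 1.62 ± 0.053 in the parental cells (SD, n = 3 each), with no overlap between the lines.

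ADAM9, a widely expressed sheddase that also binds integrins, was the most abundant gene of both families in either line. It had 68.9, 68.4 and 69.5 FPKM in 231-BR cells and 103.8, 99.0 and 95.3 FPKM in the parental cells, a log2 fold change of -0.53 (SE 0.031, adjusted p = 1.3e-07). The 3 MDA-MB-231 libraries spread more widely than the 231-BR libraries, yet the lowest of them was still above the highest 231-BR library. ADAM15, which carries an integrin-binding RGD sequence in the human protein, was the second most abundant, with 48.7, 49.8 and 48.9 FPKM against 72.6, 74.7 and 75.2 FPKM. Its log2 fold change was -0.59 (SE 0.025, adjusted p = 1.2e-08), and it shares 306 exonic bases with DCST1 on the same strand. ADAM9, ADAM15, ADAM10 and ADAM17 together made up 86.7% ± 0.270 of the summed ADAM level in 231-BR cells and 90.8% ± 0.343 in the parental cells.

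ADAM19, known for the processing of neuregulins, had 4.70, 4.14 and 4.44 FPKM in 231-BR cells and 7.81, 8.17 and 8.53 FPKM in the parental cells. The log2 fold change was -0.87 (SE 0.061, adjusted p = 4.5e-07), and the groups lay well apart. It overlaps CYFIP2 on the opposite strand by 62 exonic bases. ADAM12, a sheddase of HB-EGF that is often raised in breast tumors, was low in both lines. It had 0.14, 0.18 and 0.20 FPKM in 231-BR cells and 0.82, 0.78 and 0.80 FPKM in the parental cells, so the 231-BR mean was 4.62-fold lower, and the log2 fold change was -1.73 (adjusted p = 1.5e-06). With a pseudocount of 1 the log2 fold change of ADAM12 was -0.62.

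ADAM8, a protease of leukocytes and of invasive breast cancer cells, went the other way. It had 16.04, 17.3 and 16.7 FPKM in 231-BR cells and 11.5, 12.3 and 11.8 FPKM in the parental cells, with a log2 fold change of 0.49 (SE 0.043, adjusted p = 2.6e-06). In 231-BR cells ADAM8 thus stood above ADAM17, whereas in the parental cells it stood below it. The last tested ADAM with an active site, the testis-type gene ADAM21, had 0.51, 0.48 and 0.42 FPKM against 0.11, 0.24 and 0.18 FPKM, and was called higher with a log2 fold change of 1.07 (adjusted p = 0.0006). ADAM21 has a close intronless relative, ADAM20, at 0.03 FPKM or less in every library, and reads may be divided between them.

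Of the ADAM genes whose proteins lack a working active site, 3 of the 6 in the table were tested, and their levels were low. ADAM11 and ADAM23 passed the filter only through 231-BR cells, so their calls say nothing about the group. ADAM22, a neuronal adhesion protein that binds LGI ligands at synapses, had 1.09, 1.52 and 1.22 FPKM in 231-BR cells and 1.00, 0.84 and 0.90 FPKM in the parental cells. Its groups came close to each other, and the log2 fold change of 0.43 (SE 0.131, adjusted p = 0.012) fell to 0.0032 (adjusted p = 0.98) after quantile normalization. ADAM11, a relative expressed mainly in the nervous system, had 0.27, 0.41 and 0.34 FPKM against 0.05, 0.06 and 0.04 FPKM (adjusted p = 3.4e-05). ADAM23, also a brain protein and a receptor of LGI1, had 0.34, 0.31 and 0.36 FPKM in 231-BR cells and is listed at 0 in all 3 MDA-MB-231 libraries (adjusted p = 2.1e-06). The 4 LGI genes, the ligands of ADAM22 and ADAM23, were all below the filter.

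Of the 7 proteoglycan-cutting ADAMTS genes 3 could be tested, and these were called higher past a log2 fold change of 1, as were 10.9% of all genes tested. ADAMTS1 (NCBI gene 9510, chromosome 21), a protease of versican and aggrecan that also binds VEGF, showed the largest log2 fold change among the 14 genes with a mean of at least 1 FPKM in either line. It had 30.9, 30.9 and 29.8 FPKM in 231-BR cells and 6.42, 6.05 and 5.93 FPKM in the parental cells. The 231-BR libraries were tightly grouped at a level 4.98-fold above the MDA-MB-231 mean, with a log2 fold change of 2.30 (SE 0.041, adjusted p = 3.8e-11). Over the 14 alternative settings it stayed between 2.14 and 2.33. ADAMTS1 was rank 8 by level among both families in the parental cells and rank 3 in 231-BR cells, and made up 57.2% ± 0.843 of the summed ADAMTS level in 231-BR cells, against 19.1% ± 0.476 in the parental cells.

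ADAMTS15 (NCBI gene 170689, chromosome 11), which also cuts versican and aggrecan, had 2.62, 2.94 and 2.99 FPKM in 231-BR cells and 1.37, 1.08 and 1.31 FPKM in the parental cells, a log2 fold change of 1.13 (SE 0.103, adjusted p = 3.4e-06). ADAMTS9, another protease of versican, had 1.58, 1.74 and 1.67 FPKM against 0.59, 0.74 and 0.78 FPKM, a log2 fold change of 1.14 (SE 0.116, adjusted p = 7.8e-06). The antisense gene ADAMTS9-AS1 shares 174 exonic bases with ADAMTS9, and its reads could not be separated without strand. For both genes the groups did not overlap, and the log2 fold change went under 1 with a pseudocount of 1 (0.77 for ADAMTS15 and 0.65 for ADAMTS9) and after quantile normalization (0.79 and 0.73).

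The remaining proteoglycanases were close to silent. ADAMTS5, the main aggrecanase of mouse cartilage and the neighbour of ADAMTS1 on chromosome 21, had 0.12, 0.08 and 0.08 FPKM in 231-BR cells and is listed at 0 in all 3 MDA-MB-231 libraries. Its mean was under the filter, and without the filter it was called higher (adjusted p = 0.00021). ADAMTS4 reached at most 0.08 FPKM, and ADAMTS8 and ADAMTS20 at most 0.01 FPKM. ADAMTS8 lies beside ADAMTS15 on chromosome 11, so in both neighbouring pairs 1 gene was expressed over 1 FPKM and the other was not.

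ADAMTS6 (NCBI gene 11174, chromosome 5), which is tied to the fibrillin microfibrils, showed the largest decrease among genes over 1 FPKM. It had 5.51, 5.34 and 5.69 FPKM in 231-BR cells and 16.83, 17.5 and 16.04 FPKM in the parental cells. The 231-BR mean was 3.05-fold lower, with a log2 fold change of -1.59 (SE 0.047, adjusted p = 1.0e-09). ADAMTS6 made up 52.2% ± 1.40 of the summed ADAMTS level in the parental cells and 10.3% ± 0.437 in 231-BR cells, so that the leading ADAMTS gene was ADAMTS6 in the parental line and ADAMTS1 in the variant. The ratio of ADAMTS1 to ADAMTS6 was 5.54 ± 0.275 in 231-BR cells and 0.366 ± 0.018 in the parental cells (SD, n = 3 each).

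ADAMTS12 (NCBI gene 81792, chromosome 5), which cuts cartilage oligomeric matrix protein (COMP), had 7.78, 8.33 and 7.73 FPKM in 231-BR cells and 3.41, 2.89 and 2.75 FPKM in the parental cells. It was 2.63-fold higher, with a log2 fold change of 1.37 (SE 0.080, adjusted p = 1.1e-07), and the groups lay far apart. ADAMTS7, the closest relative of ADAMTS12 and also a COMP protease, had 0.14, 0.06 and 0.09 FPKM in 231-BR cells and 0.33, 0.30 and 0.26 FPKM in the parental cells. Its log2 fold change was -1.03 (SE 0.200, adjusted p = 0.00089), but it passed the filter only through the parental line. The filter makes a call more likely for such a gene, so its call makes no contrast with ADAMTS12. The log2 fold change was -0.89 without 231-BR replicate 2 and -0.97 without MDA-MB-231 replicate 1.

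**Figure D3:**
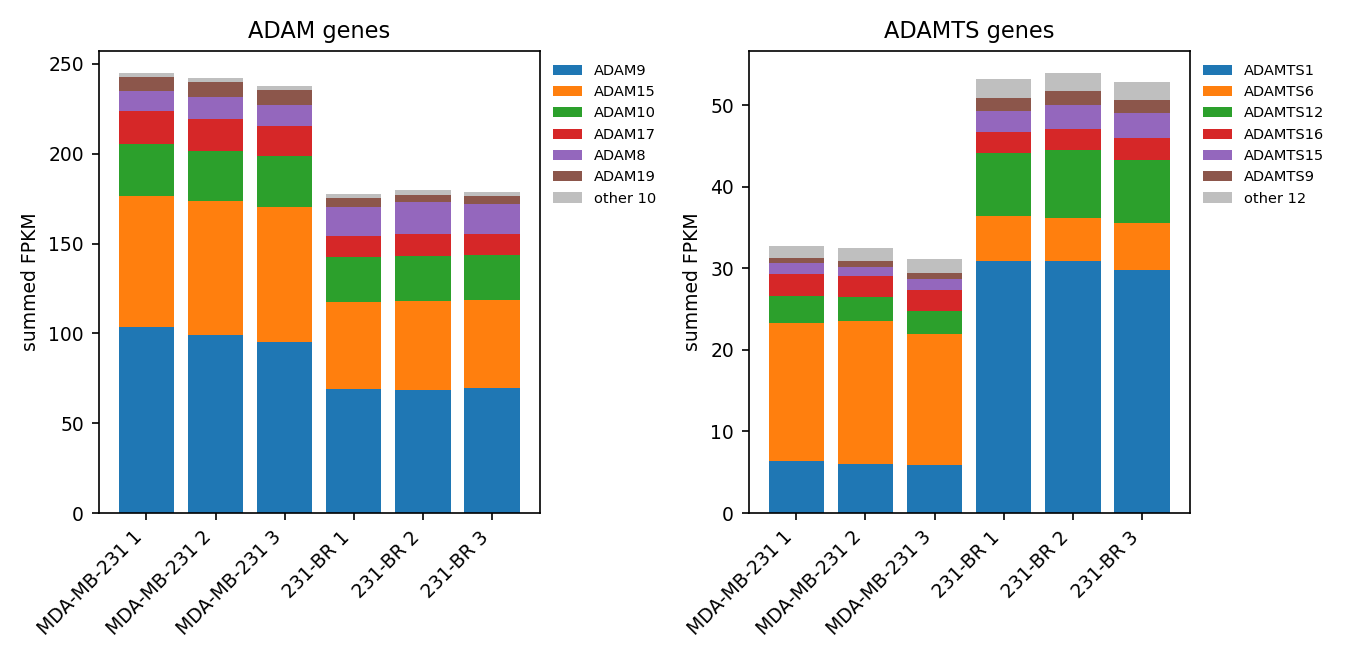
Summed FPKM of the ADAM genes (left) and the ADAMTS genes (right) in each library, stacked by gene, with the genes not shown by name added together in gray. The ADAM bars run from 178 to 180 FPKM in 231-BR cells and from 238 to 245 FPKM in the parental cells, and the largest ADAMTS part is ADAMTS6 in the parental line and ADAMTS1 in 231-BR cells.

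ADAMTS6 and ADAMTS12 both lie on chromosome 5 and moved in opposite directions, so the 250 bases before their RefSeq starts are shown, 5′ to 3′ on the strand of the gene, from RefSeq on GRCh38.p14. Promoter sequences were at hand for 22 of the 34 genes, and these are those of the genes past a log2 fold change of 1 with a mean of at least 1 FPKM. Capitals mark matches on either strand to any of 6 short motifs. The core promoter element bound by the TBP factor was searched as TATAAA and the element bound by Sp factors, the GC box, as GGGCGG. The AP-1 motif of Fos and Jun factors was searched in a loose form, TGANTCA, with any base at N. The cyclic AMP response element, CRE, was searched as TGACGTCA. The motif of the TEAD factors was searched as GGAATG, and the core of the hypoxia response element as ACGTG. The windows are chr5:65481921-65482170 for ADAMTS6 and chr5:33891991-33892240 for ADAMTS12, both on the minus strand.
ADAMTS6: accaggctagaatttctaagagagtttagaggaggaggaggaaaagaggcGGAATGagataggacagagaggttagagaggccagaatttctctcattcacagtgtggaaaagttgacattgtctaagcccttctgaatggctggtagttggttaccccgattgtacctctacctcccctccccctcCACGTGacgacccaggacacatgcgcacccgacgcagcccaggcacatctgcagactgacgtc
ADAMTS12: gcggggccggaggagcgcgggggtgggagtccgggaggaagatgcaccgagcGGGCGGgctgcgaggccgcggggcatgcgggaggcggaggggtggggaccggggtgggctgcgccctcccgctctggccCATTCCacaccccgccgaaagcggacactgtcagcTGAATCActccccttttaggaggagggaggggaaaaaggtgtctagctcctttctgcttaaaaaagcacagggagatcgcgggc

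The ADAMTS6 window holds a TEAD match 200 bases before the start and overlapping matches to the hypoxia motif on both strands, 63 and 62 bases before it. The ADAMTS12 window holds a GC box, a TEAD match and a match to the loose AP-1 form, 198, 119 and 84 bases before the start. The last of these reads TGAATCA. Of the 27305 RefSeq windows of this length, 11.9% hold the TEAD motif, 18.7% the hypoxia motif, 42.3% the GC box, 6.6% the AP-1 motif, 11.1% the TBP element and 1.77% the CRE, so these matches are a description and not sites. The windows also differed in composition, with 52.4% G and C in ADAMTS6 and 68.4% in ADAMTS12. Over the 22 genes the ratio of observed to expected CpG had a median of 0.863 in the 9 genes with a mean of at least 1 FPKM in either line and 0.681 in the 8 genes under 0.1 FPKM in every library, against 0.556 over all windows, and its rank correlation with the mean level was 0.21 over the 22 genes.

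ADAMTS3, which removes the N-propeptide of procollagen and activates VEGF-C, had 1.07, 1.27 and 1.04 FPKM in 231-BR cells and 0.62, 0.51 and 0.59 FPKM in the parental cells. It was called higher with a log2 fold change of 0.86 (SE 0.122, adjusted p = 9.5e-05), and it shares 70 exonic bases with a gene on the opposite strand. The other procollagen N-proteinases, ADAMTS2 and ADAMTS14, reached at most 0.03 FPKM. ADAMTS17 had 0.87, 0.74 and 0.87 FPKM against 0.45, 0.67 and 0.68 FPKM, and shares 431 exonic bases with a gene on the opposite strand. Its log2 fold change of 0.42 (adjusted p = 0.032) was carried in part by MDA-MB-231 replicate 1, without which it was 0.25 (adjusted p = 0.10). The call was also lost without 231-BR replicate 1 (adjusted p = 0.091) and without 231-BR replicate 3 (adjusted p = 0.089).

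ADAMTS16 was the tested gene that was not called. It had 2.49, 2.53 and 2.79 FPKM in 231-BR cells and 2.65, 2.68 and 2.69 FPKM in the parental cells, and the groups overlapped. The log2 fold change was -0.04 with a 95% interval from -0.20 to 0.12 (adjusted p = 0.64), and after quantile normalization it was -0.35 (adjusted p = 0.0015). The 14 genes under the filter included the other testis-type ADAM genes (ADAM18, ADAM20, ADAM29 and ADAM32), ADAM28, the von Willebrand factor protease ADAMTS13, and ADAMTS18 and ADAMTS19. Of these, ADAM32 reached 0.1 FPKM in 1 library, with 0.13 FPKM in MDA-MB-231 replicate 1, as did ADAMTS5 in 231-BR replicate 1, and no library of the other 12 reached 0.1 FPKM.

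In order of level, ADAM9 and ADAM15 came first in both lines. In 231-BR cells they were followed by ADAMTS1, ADAM10, ADAM8, ADAM17, ADAMTS12, ADAMTS6, ADAM19, ADAMTS15, ADAMTS16, ADAMTS9, ADAM22 and ADAMTS3. The libraries overlapped between ADAMTS15 and ADAMTS16 and between ADAM22 and ADAMTS3. In MDA-MB-231 cells the order was ADAM10, ADAM17, ADAMTS6, ADAM8, ADAM19, ADAMTS1, ADAMTS12, ADAMTS16 and ADAMTS15, and ADAM17 and ADAMTS6 overlapped. Against all genes of the table, ADAM9 lay at the 93.2nd percentile of levels in 231-BR cells and at the 95.4th in the parental cells, while ADAMTS1 moved from the 55.7th to the 83.7th and ADAMTS6 from the 74.0th to the 51.9th.

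Each gene was also set beside its neighbours, taken as the nearest 20 genes on either side, counting only tested genes with a mean of at least 1 FPKM, and fewer near the end of a chromosome. For ADAMTS1 the median log2 fold change of the neighbours was 0.01, for ADAMTS9 0.08 and for ADAMTS6 -0.07, while the genes themselves were at 2.30, 1.14 and -1.59. For ADAMTS15 the median was 0.54, for ADAMTS3 0.49 and for ADAMTS12 0.49, on the same side as the genes themselves. For ADAMTS7 and ADAM12, both called lower, the medians were on the opposite side, at 0.50 and 0.32. For ADAM9, ADAM10, ADAM15, ADAM17 and ADAM19 the medians lay between -0.14 and 0.02. The part of the neighbourhood in these results was not tested.

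**Figure D4:**
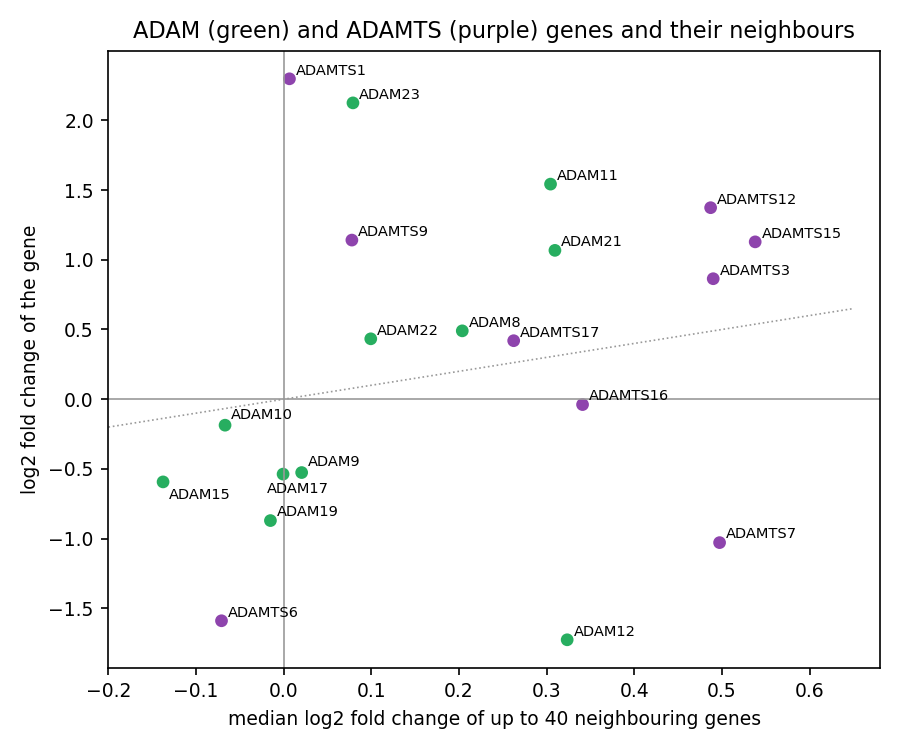
Log2 fold change of each tested gene against the median over its neighbours on the chromosome, up to 40 genes for each; the dotted line marks equal values. ADAMTS12, ADAMTS15 and ADAMTS3 have neighbour medians of 0.49 to 0.54, whereas ADAMTS1, at 2.30, has a neighbour median of 0.01.

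The other genes of the pathway were taken from lists by role. Of the ADAM10 and ADAM17 partners and maturation enzymes, 5 of 12 tested were called higher and 3 lower, where 44.4% and 32.9% of all genes tested were. The median log2 fold change was 0.14, where that of all genes tested was 0.08. FURIN, a proprotein convertase that removes the prodomain of ADAM proteases, was at 7.21 ± 0.204 FPKM in 231-BR cells and 22.6 ± 0.165 FPKM in the parental cells (SD, n = 3 each), which gave -1.63 as log2 fold change. The convertase gene PCSK5 had 2.63 ± 0.110 FPKM against 0.583 ± 0.075 FPKM, a log2 fold change of 2.0. Of the tetraspanins that escort ADAM10, TSPAN5, TSPAN14 and TSPAN15 were called higher, by 0.68, 0.37 and 0.39 on the log2 scale, and TSPAN17 lower, at -0.39. The iRhom genes that carry ADAM17 to the surface split, with RHBDF1 at 0.41 and RHBDF2 at -0.27, both called.

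All 5 genes of the inhibitor list were tested, and 4 were called higher and 1 lower, with a median log2 fold change of 0.56. The shares over all genes tested were 44.4% higher and 32.9% lower. TIMP3, the tissue inhibitor that acts on ADAM17 and on the ADAMTS proteoglycanases, was at 113 ± 1.36 FPKM in 231-BR cells and 0.380 ± 0.096 FPKM in the parental cells (SD, n = 3 each). Its level in 231-BR cells was thus above that of ADAM9, the most abundant of the proteases, whereas in the parental cells it was below that of ADAMTS9. TIMP1 and TIMP2 were abundant in both lines. TIMP2 had 124 ± 1.22 FPKM against 84.4 ± 0.990 FPKM and was called higher, with a log2 fold change of 0.56. TIMP1, which inhibits ADAM10, had 105 ± 3.36 FPKM against 193 ± 10.5 FPKM. It was the gene called lower, with a log2 fold change of -0.88. TIMP4 had 2.0 ± 0.320 FPKM against 0.663 ± 0.120 FPKM. The ADAMTS-like genes, which have no protease domain, had 4 of 6 tested called higher and 1 lower. ADAMTSL3, called higher, had a mean of at least 0.1 FPKM in 231-BR cells only, which makes a call more likely. ADAMTSL1 had 4.55 ± 0.427 FPKM against 2.25 ± 0.182 FPKM, and THSD4 4.35 ± 0.307 FPKM against 2.47 ± 0.076 FPKM.

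Of the membrane substrates of ADAM10 and ADAM17, 7 of 23 tested were called higher and 12 lower, with a median log2 fold change of -0.27. Of all genes tested, 44.4% were called higher and 32.9% lower, with a median of 0.08. BTC, EGF and TNF, all called, had a mean of at least 0.1 FPKM in 1 line only, which makes a call more likely. Among the EGF receptor ligands on the list, EREG was at 32.2 ± 0.289 FPKM in 231-BR cells and 0.307 ± 0.031 FPKM in the parental cells, and AREG 7.71 ± 0.777 FPKM against 1.34 ± 0.236 FPKM (SD, n = 3 each), whereas HBEGF and TGFA were called lower, with log2 fold changes of -1.09 and -0.98. BTC and EGF were called higher at levels under 1 FPKM, with log2 fold changes of 1.52 and 0.75, and EPGN was not called. Of the matrix substrates of the ADAMTS proteases, 7 could be tested, and 2 were called higher and 4 lower, where 44.4% and 32.9% of all genes tested were. RELN, the glycoprotein reelin, had 1.92 ± 0.131 FPKM against 0.040 ± 0.010 FPKM, and COL5A1 3.63 ± 0.200 FPKM against 9.54 ± 0.159 FPKM. RELN, called higher, and BCAN, called lower, also had a mean of at least 0.1 FPKM in 1 line only. The fibrillin gene FBN1 had 4.32 ± 0.084 FPKM against 1.67 ± 0.129 FPKM and was called higher, with a log2 fold change of 1.33. VEGFC was called lower, at -0.39. Versican, encoded by VCAN and the shared substrate of ADAMTS1, ADAMTS9 and ADAMTS15, was at 0.297 ± 0.049 FPKM in 231-BR cells and 0.243 ± 0.060 FPKM in the parental cells and was not called (adjusted p = 0.31). Over all 53 tested genes of these lists, 22 were called higher and 21 lower, or 81.1% in all, near the background of 77.3%. Past a log2 fold change of 1 there were 8 called higher and 8 lower, or 30.2%, against 15.2% of all genes tested. RELN, BTC and TNF are among these, with a mean of at least 0.1 FPKM in 1 line only. Of all tested genes with such a mean in both lines, 12.1% were past this fold. The lists were not counted within that set. They were chosen with earlier results of these data known, and the difference in shares was not tested.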

How the data were processed

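Per the labels and the methods, poly(A) RNA of both lines was sequenced on a BGISEQ-500, and the authors filtered the reads, aligned them with HISAT2 2.0.4 and Bowtie2 2.2.5 (GRCh38.p12 in the submitters' processing notes) and deposited FPKM values per gene with 2 decimals. The program that gave the FPKM is not given in the sources used here, and no scaling between libraries is stated. The libraries were grouped by title, since the number in the line's name in another label field rises with the replicate. Read counts were not used, so the depth and its precision are unknown. Of 1238 low genes, 166 had the same value in 231-BR replicates 1 and 2. This count of equal values does not give the FPKM of a single read.

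The limma package (3.58.1, in R 4.3.3) was run on log2(FPKM + 0.1), with the cell line as the sole factor, for the 13465 genes whose FPKM averaged 0.1 or more (lmFit, eBayes with a trend). Adjusted p-values are Benjamini-Hochberg values over these genes. The fit was tested on simulated data. An exact permutation test of 3 libraries against 3 reaches 0.1 at the lowest. The genes and lists were chosen with earlier results of these data known. Genes with a mean of at least 1 FPKM in either line were named with values, the others where 1 library reached 0.1 FPKM, and some others were named after their values were seen. Of each list, the 2 largest called changes with a mean of at least 1 FPKM in either line were named by rule. TSPAN5, TSPAN14, TSPAN15, TSPAN17, RHBDF1, RHBDF2, TIMP1, TIMP2, ADAMTSL3, HBEGF, TGFA, BTC, EGF, EPGN, TNF, VCAN, BCAN, FBN1 and VEGFC were named after their values were seen. Gene order came from RefSeq (GRCh38.p14), in which all 34 genes were found, and exon overlaps from GENCODE release 29. Alternatives were pseudocounts of 1 and 0.01, other filters, scaling and variance settings, a term for the replicate number, and each library left out. A search of protein sequences for the zinc-binding motif was planned and not run. Python 3.11.15 was used for figures.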

Additional observations from a re-analysis of the deposited data

How the results depend on the processing

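The directions of the 20 tested genes were the same under all alternatives in which they could be fitted, except for ADAMTS17, which was -0.0295 (adjusted p = 0.87) after quantile normalization. With a pseudocount of 1, the genes past a log2 fold change of 1 were 2 higher and 1 lower in place of 7 and 3. A filter at a mean of 1 FPKM tests fewer genes, and left 6 called higher, with 4 higher and 1 lower past that fold. After quantile normalization 4 were higher past that fold, and 4 lower. With each library left out in turn, 10 to 11 genes were called higher and 8 lower, 6 to 7 were past the fold higher and 2 to 3 lower, and 21 to 23 and 20 to 21 of the genes of the related lists were called higher and lower. Without MDA-MB-231 replicate 1, ADAM21 fell under the fold (0.88), as did ADAMTS7, which also did so without 231-BR replicate 2. ADAMTS17 was not called after median-of-ratios scaling (0.35, adjusted p = 0.068) or without a filter (adjusted p = 0.058). The cause of these changes was not tested. With the replicate number as a replicate block, the counts were 11 and 8 called, 7 and 3 past the fold, and 23 and 21 in the related lists, and 10502 genes were called in place of 10406. Libraries of the same number did not deviate together, with correlations of 0.09, -0.04 and -0.11 across 11124 genes, so the numbers were not taken to pair them. Libraries of different number gave -0.15 to 0.18, the highest for 231-BR replicate 2 with MDA-MB-231 replicate 3. A pairing under another numbering was not tested. Without counts, the precision of the genes under 1 FPKM cannot be given.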
